A study of Mus musculus with 4 samples.

Results

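In the 2 libraries of E12.5 small intestine (SI) stroma, 233 of 10794 cells carried at least 1 unique molecular identifier (UMI, a tag that counts each captured transcript once) of *Hoxa10*, *Hoxc10*, *Hoxd9*, *Hoxd10* or *Hoxd11*. These posterior *Hox*-positive cells were set against the 10561 SI cells with 0 UMIs of the 5 genes, as sums within each library. Only 18 of the positive cells came from SI replicate 1, and 215 came from SI replicate 2. The whole series held 20745 cells under the same filter, which asked for 1000 or more detected genes, under 10% mitochondrial UMIs and no UMI of *Upk3b*, a mesothelial gene, or of *Sox10* and *Prph*, genes of enteric glia and neurons.

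The cells came from untreated mouse embryos at E12.5, sired by EYFP males on C57BL/6Nrj females, so that sorted cells of every library carried the YFP reporter. SI and large intestine (LI, with the cecum) were dissected, and Live CD45- Ter119- CD31- EpCAM- Itgb1+ YFP+ mesenchymal cells of several pooled embryos were sorted in each of 2 independent experiments. Titles and source names give the stage and region, which were followed here, although the sample descriptions speak of adult stroma and the tissue fields of lamina propria. Each region has 2 replicate libraries, and no library is tied to a single embryo. Pooling limits the comparison: the 2 SI libraries differ in embryos and dissection at once, and these cannot be told apart.

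Hox genes lie in 4 clusters whose order along the chromosome follows the order of their expression along the body. The more 5′ members of a cluster, groups 9 to 13, are active in the hindgut wall and also in other posterior mesoderm, including the kidney, the genital tract, the hind limb bud and the trunk wall. The mesenchyme of the gut itself is known for the forkhead genes *Foxf1* and *Foxf2*, which hedgehog signals from the epithelium switch on, and for *Nkx2-3*. In the mouse genome (build mm10), *Hoxa10* lies at chr6:52231197-52240854, *Hoxc10* at chr15:102966796-102971893, and *Hoxd11*, *Hoxd10* and *Hoxd9* side by side between chr2:74679557 and chr2:74700208. The annotation lets exons of *Hoxc10* overlap those of *Hoxc5* on the same strand, so that reads of these genes may not be fully separated.

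The share of positive cells was 0.377% in SI replicate 1 (95% Wilson interval 0.239 to 0.595%) and 3.57% in SI replicate 2 (3.13 to 4.07%). In the LI libraries, 80.6% and 81.9% of cells were positive. Both SI shares lay far under both LI shares, which is a description with no test, since the rule is made of these genes. Over all positive cells the difference in depth was small: they had a median of 7822.5 and 9340.0 UMIs in SI replicates 1 and 2, against 8853.0 and 8365.5 in negative cells. In SI replicate 2 the median was 7563 UMIs in cells with 1 UMI of the 5 genes and 12085 in those with over 5. After every cell was thinned to 3000 UMIs, the shares were 0.149% and 2.55% in SI, against 74.0% and 71.1% in LI. The intervals cover counting error only.

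Enteric neural cells, left out by the rule, were looked at for comparison, since free RNA can give UMIs to any cell. In SI replicate 1, 0 of 249 cells with UMIs of *Sox10* or *Prph* (median 15118 UMIs) were positive, which allows a share of up to 1.20%. In SI replicate 2 it was 2 of 363 such cells (0.551%, interval 0.151 to 1.99%, median 12906 UMIs), under the 3.57% of the other cells at a higher depth. The share of 0.377% in SI replicate 1 is thus under the limit of its neural cells, and the 3.57% of SI replicate 2 is over the interval of its own. Among kept cells with 3 or more UMIs of enteric neural markers, 1 of 358 (0.279%) and 13 of 685 (1.90%, interval 1.11 to 3.22%) were positive in SI replicates 1 and 2. In LI, 18.7% and 21.9% of cells with *Sox10* or *Prph* were positive. The SI libraries shared 8 to 15 cell barcodes with each LI library, and 0 of the 233 positive barcodes were among them. The SI libraries shared 10 barcodes with each other, of which 1 was positive in SI replicate 2.

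The 5 genes of the rule chose the cells, so their levels are given as a description with no test. SI replicate 1 held 25 UMIs of the 5 genes in its 18 cells, of which 14 cells had 1 UMI, 3 had 2 and 1 had 5. *Hoxc10* gave 13 of these UMIs, *Hoxd9* 9, *Hoxd11* 2, *Hoxa10* 1 and *Hoxd10* 0. SI replicate 2 held 1188 UMIs, and 90 of its 215 cells (41.9%) had over 5 UMIs, 39 had 3 to 5, 23 had 2 and 63 had 1. Its UMIs came from *Hoxa10* (354), *Hoxd11* (334), *Hoxc10* (259), *Hoxd9* (128) and *Hoxd10* (113). In CPM, the UMIs of a gene scaled to a fixed total of all UMIs of the summed cells, the 5 genes together stood at 151 in positive cells of SI replicate 1, at 515 in SI replicate 2, and at 1049 and 964 in positive LI cells. At least 2 of the 5 genes were detected together in 2 of 18 positive cells of SI replicate 1 and in 133 of 215 (61.9%) of SI replicate 2. The libraries thus differed in kind as well as in number: SI replicate 1 held mostly single transcripts, while SI replicate 2 held many cells with several genes at once.

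**Figure D1:**
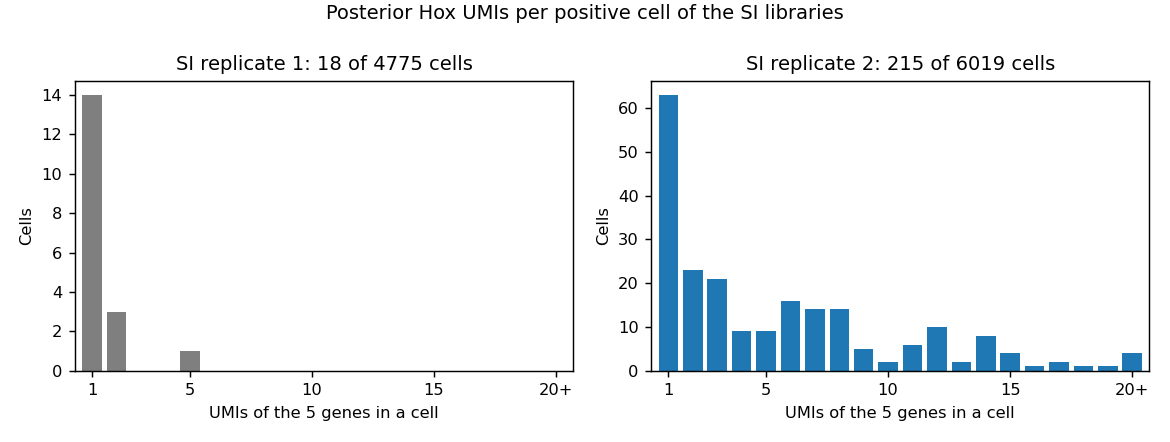
Number of cells (vertical axis) by UMIs of the 5 posterior *Hox* genes in a cell (horizontal axis, 20 and more pooled), for positive cells of SI replicate 1 (left, 18 cells) and SI replicate 2 (right, 215 cells). The vertical scales differ; 14 cells of replicate 1 sit at 1 UMI, and replicate 2 has 90 cells with over 5.

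The first question was which other genes separate positive from negative SI cells within a library. Of 13564 genes tested, 36 passed at an adjusted p under 0.05 (0.265%), 30 higher (0.221%) and 6 lower (0.0442%) in positive cells, and 4 of the 30 were genes of the rule, which had to differ. The fit (edgeR's quasi-likelihood test with Benjamini-Hochberg adjustment) held the library as a term, so that cells were compared within a library. With TMM scaling 60 genes passed, 73.3% of them higher, and with DESeq2 61 genes, 54.1% higher, beside 83.3% here. The other 32 included *Hox* genes of group 9, the transcription factors *Foxc1*, *Foxc2*, *Sall1*, *Eya1*, *Meox1*, *Ebf1* and *Isl1* among the higher, and the contractile genes *Actg2* and *Myh11* with the signalling antagonists *Grem1* and *Sfrp1* among the lower. The direction was the same in both SI libraries for 21 of the 32 genes, 15 higher and 6 lower, beside 52.4% of all genes tested. A sum of 0 UMIs in positive cells of SI replicate 1 counts as lower, which applies to 3 of the 6 lower genes. Another 10 of the higher genes had 0 UMIs in the positive sum of SI replicate 1, which holds 165286 UMIs against 2306656 in SI replicate 2, so that 3 UMIs, the floor used here, stand for 18.2 CPM there. The count depended on the settings: 0 genes passed when membership asked for 2 or more UMIs, when *Hoxd9* was left out of the rule, when cells rich in contractile transcripts were removed, when only deeper cells were kept or when cells were thinned, with 663 to 1312 genes at an unadjusted p under 0.05. Over these 5 settings the log2 fold change of *Hoxa9* was 3.93 to 4.70, beside 4.26 here, and that of *Sfrp1* -2.12 to -1.43, beside -1.59, whereas *Isl1* ranged from 1.00 to 2.59, beside 2.37.

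Among the *Hox* genes outside the rule, 2 genes of group 9 were called in edgeR's test. *Hoxa9* had 24.2 CPM in positive and 1.86 in negative cells of SI replicate 1, and 68.5 and 3.21 CPM in SI replicate 2. That is 13-fold (95% counting interval 3.47 to 34.6) and 21.3-fold (17.1 to 26.6), and the fit gave a log2 fold change of 4.26 ± 0.19 (SE), adjusted p = 0.018. *Hoxb9* stood at 6.05 against 0.380 CPM in SI replicate 1, from a single UMI, and at 37.7 against 0.907 CPM in SI replicate 2 (log2 fold change 5.21 ± 0.29, adjusted p = 0.019). Of the 11 *Hox* genes of groups 9 to 13 outside the rule, 3 had enough UMIs to be tested and 2 passed, both higher (0.221% of all genes were). *Hoxc9*, the remaining gene tested, was 5.01-fold higher in SI replicate 1 and 2.76-fold in SI replicate 2 (adjusted p = 0.10 in edgeR's test). DESeq2 called all 3. *Hoxa11* and *Hoxc11* were seen in positive cells of SI replicate 2 only, with 81 and 31 UMIs, against 2 and 0 UMIs in its negative cells. *Hoxa13*, *Hoxd13*, *Hoxb13*, *Hoxc12* and *Hoxc13*, genes of the most posterior groups, had 0 to 2 UMIs in positive cells of either library, and *Hoxd12* had 0 and 14 UMIs in those of SI replicates 1 and 2.

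The more anterior *Hox* genes had no call. Of the 23 genes of groups 1 to 8, 22 were tested and 0 passed in edgeR's test, with 13 of them at an unadjusted p under 0.05, 11 of these lower, and 0 called by DESeq2, beside 0.265% called of all genes. Their median log2 fold change was -0.66, beside -0.03 over all genes tested. Their summed level was 1160 CPM in positive and 1040 CPM in negative cells of SI replicate 1, but 522 against 862 CPM in SI replicate 2. *Hoxa4* stood at 42.4 against 71.0 CPM in SI replicate 1 and at 6.07 against 35.2 CPM in SI replicate 2 (adjusted p = 0.14), whereas *Hoxd4* and *Hoxd8*, which share the cluster of *Hoxd9*, were 42.4 and 24.2 CPM in positive cells of SI replicate 1, against 11 and 8.55 in negative cells, and 16.5 and 22.1 CPM against 9.24 and 7.73 in SI replicate 2 (adjusted p = 0.23 and 0.11).

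**Figure D2:**
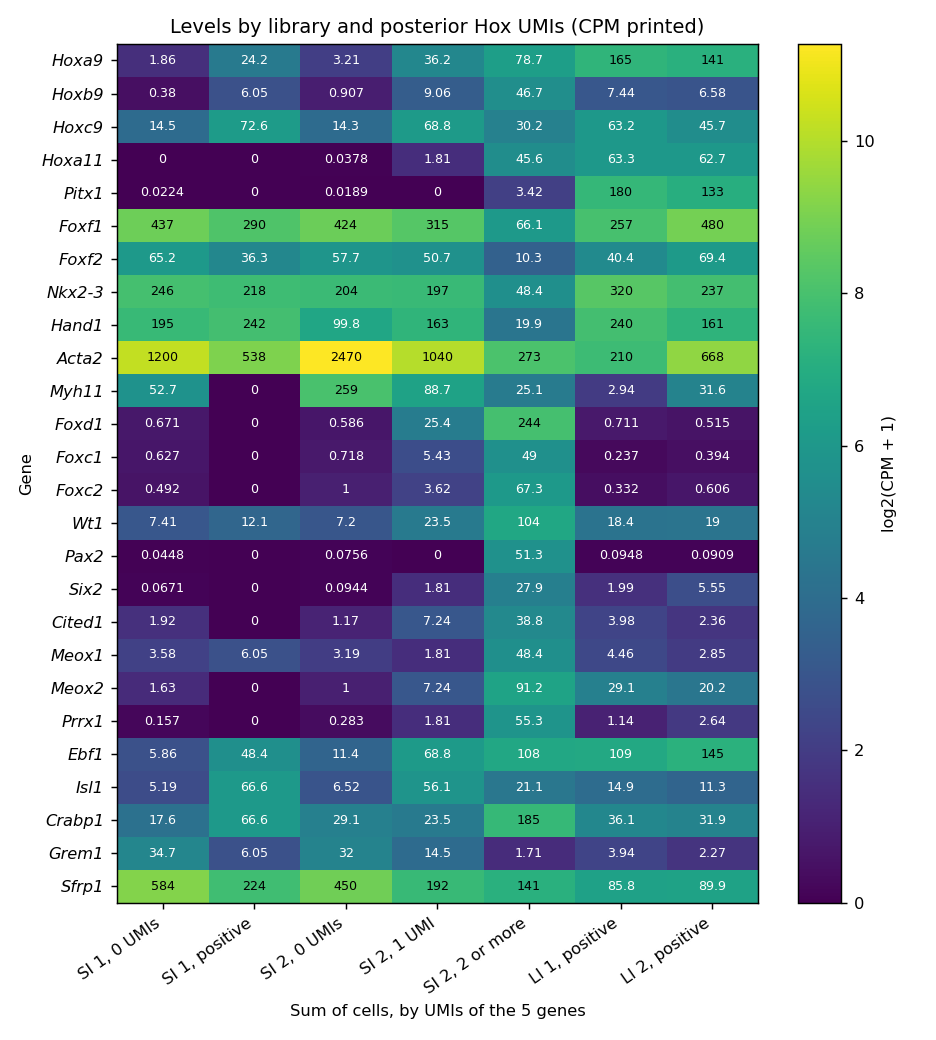
Levels of 26 genes (rows) in summed cells (columns): negative and positive cells of SI replicate 1, SI replicate 2 cells with 0, 1 or 2 and more UMIs of the 5 genes, and positive LI cells of replicates 1 and 2. Colour is log2(CPM + 1) and the printed number is CPM; *Foxd1* is at 244 CPM in the SI replicate 2 cells with 2 or more UMIs and at most 25.4 CPM in every other column, and *Pitx1* is above 3.42 CPM in LI columns only.

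Values on either side of the threshold were as follows. In SI replicate 2, the 63 cells with 1 UMI, just inside it, had *Foxf1* at 315 CPM and *Foxd1* at 25.4 CPM, while the cells with 0 UMIs, just outside, had 424 and 0.586 CPM. The 152 cells with 2 or more UMIs had *Foxf1* at 66.1 and *Foxd1* at 244 CPM. The *Foxd1* UMIs of the cells with 1 posterior *Hox* UMI came from 3 of the 63 cells.

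The labelled tissue was checked against the transcription factors of gut mesenchyme, and in SI replicate 2 positive cells held less of them than negative cells. *Foxf1* was at 290 CPM in positive and 437 CPM in negative cells of SI replicate 1, and at 126 against 424 CPM in SI replicate 2. *Nkx2-3*, needed for gut wall and spleen development, was at 218 against 246 CPM in replicate 1 and at 84.1 against 204 CPM in replicate 2. *Hand1*, a factor of lateral mesoderm, was at 242 against 195 CPM and at 54.2 against 99.8 CPM. None of the 3 passed the test of positive against negative cells over both libraries (adjusted p = 0.15, 0.25 and 0.57). After thinning to 3000 UMIs, *Foxf1* was detected in 61.6% of negative cells of SI replicate 2, in 45.9% of cells with 1 posterior *Hox* UMI, in 24.0% of those with 2 to 4 and in 9.18% of those with 5 or more.

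Positive cells of SI replicate 2 also carried genes known from the embryonic kidney, trunk and limb. *Foxd1*, which marks the stromal progenitors of the kidney among other tissues, had 442 UMIs or 192 CPM (counting interval 174 to 210) in positive cells of SI replicate 2 and 0.586 CPM in its negative cells, 327-fold (227 to 488). In SI replicate 1 it had 0 UMIs in positive cells and 0.671 CPM in negative cells, and in positive LI cells 0.711 and 0.515 CPM. The fit over both SI libraries did not call it (adjusted p = 0.063). *Foxc1* and *Foxc2*, forkhead factors of paraxial and intermediate mesoderm, were at 38.6 and 52.0 CPM in positive cells of SI replicate 2, against 0.718 and 1.00 CPM in negative cells, and had 0 UMIs in positive cells of SI replicate 1. They were called (both adjusted p = 0.018) on the UMIs of SI replicate 2. The 0 UMIs of replicate 1 allow up to 18.2 CPM, which is under the levels of both genes in positive cells of SI replicate 2. *Foxd1*, *Foxc1* and *Foxc2*, and *Shisa3*, *Fgf18*, *Meox2*, *Enho* and *Tril* later, were singled out after their values were seen.

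*Pax2*, a factor of the nephric lineage, had 90 UMIs in positive cells of SI replicate 2 and 4 in the 5804 negative cells, and *Six2*, a factor of nephron progenitors, had 50 and 5 UMIs. *Wt1*, active in kidney, gonad and mesothelium, was at 84.5 against 7.2 CPM in SI replicate 2 and at 12.1 against 7.41 CPM in SI replicate 1, where positive cells held 2 UMIs. Of the 7 nephric and gonadal markers listed, 3 had enough UMIs to be tested and 1 passed (0.221% of all genes were higher), *Cited1*, a gene of nephron progenitors (31.2 against 1.17 CPM in SI replicate 2, 0 UMIs in positive cells of SI replicate 1, adjusted p = 0.028). The summed level of the 7 was 94.5 CPM in positive and 2.78 CPM in negative cells of SI replicate 2, and 6.05 and 3.71 CPM in SI replicate 1. *Lhx9* and *Nr5a1*, which define the early gonad, had 0 UMIs in all positive SI cells.

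Among the 9 limb and paraxial mesoderm markers, 4 were tested and 2 passed, both higher (0.221% of all genes), with a median log2 fold change of 1.53, while DESeq2 called 0 of the 4. *Meox1*, a homeobox gene of somites, was at 37.3 against 3.19 CPM in SI replicate 2 and at 6.05 against 3.58 CPM in SI replicate 1, from 1 UMI (log2 fold change 3.26 ± 0.21, adjusted p = 0.028). *Sox9*, known from cartilage and gonad, was at 36.4 against 4.12 CPM and at 12.1 against 5.33 CPM (2.87 ± 0.20, adjusted p = 0.034). *Prrx1*, a homeobox gene of limb and body wall mesenchyme, had 98 UMIs in positive cells of SI replicate 2 against 15 in its negative cells, and 0 in positive cells of SI replicate 1. *Pax1* had 0 UMIs in positive cells of both libraries.

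**Figure D3:**
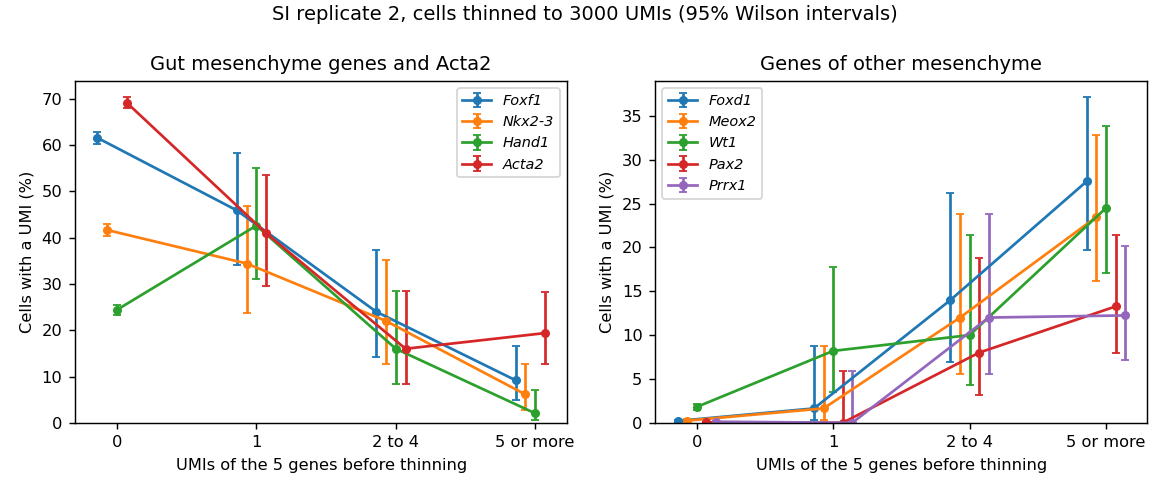
Share of SI replicate 2 cells with a UMI (vertical axes, %) after thinning each cell to 3000 UMIs, by UMIs of the 5 posterior *Hox* genes before thinning (horizontal axes). Points are shares and bars 95% Wilson intervals; *Foxf1* went from 61.6% of cells with 0 *Hox* UMIs to 9.18% of cells with 5 or more, *Foxd1* from 0.21% to 27.6%.

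The positive cells of SI replicate 2 were not of 1 kind, which the forkhead genes show. UMIs of *Foxd1*, *Foxc1* or *Foxc2* without *Foxf1* or *Foxf2* were found in 76 of the 215 cells, *Foxf1* or *Foxf2* alone in 67, both in 16 and neither in 56. All of these groups were formed from measured values, so their levels are a description. In SI replicate 1 the 18 cells fell into 13 with *Foxf1* or *Foxf2* alone and 5 with neither. Of the 200 cells of SI replicate 2 with any UMI of *Foxd1*, *Foxc1* or *Foxc2*, 92 (46.0%) were posterior *Hox*-positive, against 0 of 73 in SI replicate 1. Of the 85 cells of SI replicate 2 with 2 or more UMIs of *Foxd1*, *Foxc1* and *Foxc2*, 76 (89.4%) were posterior *Hox*-positive, against 0 of the 5 such cells of SI replicate 1. The 76 cells with *Foxd1* or *Foxc* genes alone had a median of 7 posterior *Hox* UMIs, and those with *Foxf* genes alone had 1. Cells with both kinds had a median of 18155.5 UMIs in total, against 11703.0 and 7806.0 in the former groups. Scrublet, which scores doublets, put 24 of the 215 positive cells (11.2%) and 4.60% of negative cells of SI replicate 2 among its highest scores, and 0 of the 18 in SI replicate 1. Without the high scores 60 genes were called, all 36 among them.

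The group with *Foxd1* or *Foxc* genes alone had *Foxd1* at 440 CPM, *Shisa3* at 247, *Wt1* at 148 and *Aldh1a2*, which makes retinoic acid, at 353. Its *Acta2*, the smooth muscle actin gene, was at 34.7 CPM, against 1150 CPM in the group with *Foxf* genes alone. That group had *Foxf1* at 394, *Nkx2-3* at 221, *Hand1* at 157 and *Hoxc9* at 77.8 CPM. The 56 cells with neither held *Meox2* at 198, *Isl1* at 108, *Fgf18* at 90.5, *Shox2* at 77.6 and *Tbx5*, a forelimb and heart factor, at 36.6 CPM. *Shox2* and *Tbx5* had 0 UMIs in cells with *Foxd1* or *Foxc* genes, alone or with *Foxf* genes.

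Some pairs of genes were counted within single cells. Of the 152 cells of SI replicate 2 with 2 or more posterior *Hox* UMIs, 51 had a UMI of *Foxd1* and 31 of *Pax2*, and 4 had both. *Pax2* and *Six2* (30 cells) occurred together in 21 cells, and *Six2* and *Meox2* (54 cells) in 26. *Foxd1* and *Meox2* occurred together in 6. *Foxf1* (33 cells) was found with *Nkx2-3* (40 cells) in 23 cells, and with *Foxd1* in 5. *Foxc1* (51 cells) was found with *Foxd1* in 28 cells and with *Pax2* in 20, and *Wt1* (62 cells) with *Foxd1* in 28 and with *Pax2* in 26. Few cells thus held *Foxd1* with *Pax2*, while *Foxc1* and *Wt1* occurred with both.

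**Figure D4:**
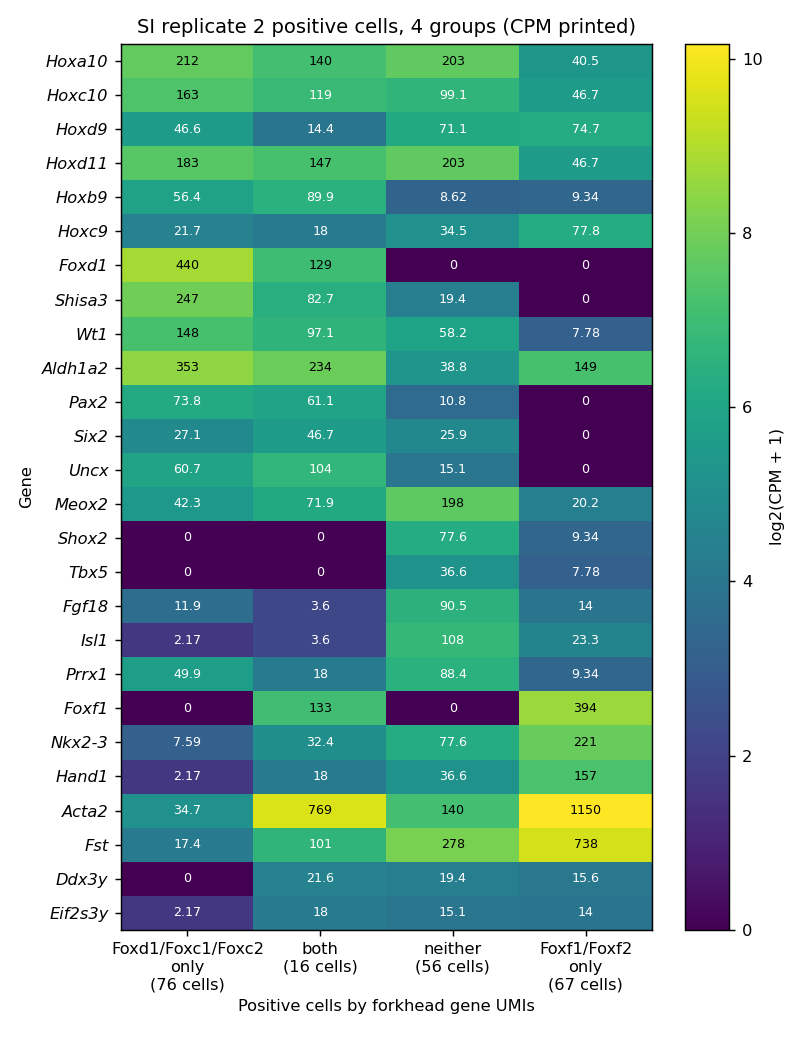
Levels of 26 genes (rows) in the 215 positive cells of SI replicate 2, summed in 4 groups (columns) by UMIs of *Foxd1*, *Foxc1* or *Foxc2* and of *Foxf1* or *Foxf2*. Colour is log2(CPM + 1) and the printed number is CPM; *Shox2* and *Tbx5* are highest in the group with neither, *Acta2* and *Fst* in the group with *Foxf* genes alone.

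Transcripts of the Y chromosome differed in level between the cells of SI replicate 2. In SI replicate 2, 15.8% of cells with 2 or more posterior *Hox* UMIs (interval 10.8 to 22.4%) had a UMI of *Ddx3y*, *Eif2s3y*, *Kdm5d* or *Uty*, against 41.0% of negative cells (39.7 to 42.2%), and 6.76% against 22.5% after thinning. *Ddx3y* was at 7.98 CPM in these cells and 46.3 CPM in negative cells, while *Xist*, made from the inactive X chromosome, was at 1080 and 546 CPM. In the 76 cells with *Foxd1* or *Foxc* genes alone, *Ddx3y*, *Kdm5d* and *Uty* had 0 UMIs and *Eif2s3y* had 2. In SI replicate 1, *Ddx3y* was at 96.8 CPM, from 16 UMIs, in positive and 56.0 CPM in negative cells, and 66.7% of positive (interval 43.7 to 83.7%) and 55.6% of negative cells had a UMI of the 4 genes, or 22.2% (9.0 to 45.2%) and 28.9% after thinning, so that no direction can be read there. Over both libraries the positive cells did not pass the test for *Ddx3y* (adjusted p = 0.13) or *Xist* (0.57). These genes were chosen after their values were seen, and the part of single embryos in the other differences was not tested.

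**Figure D5:**
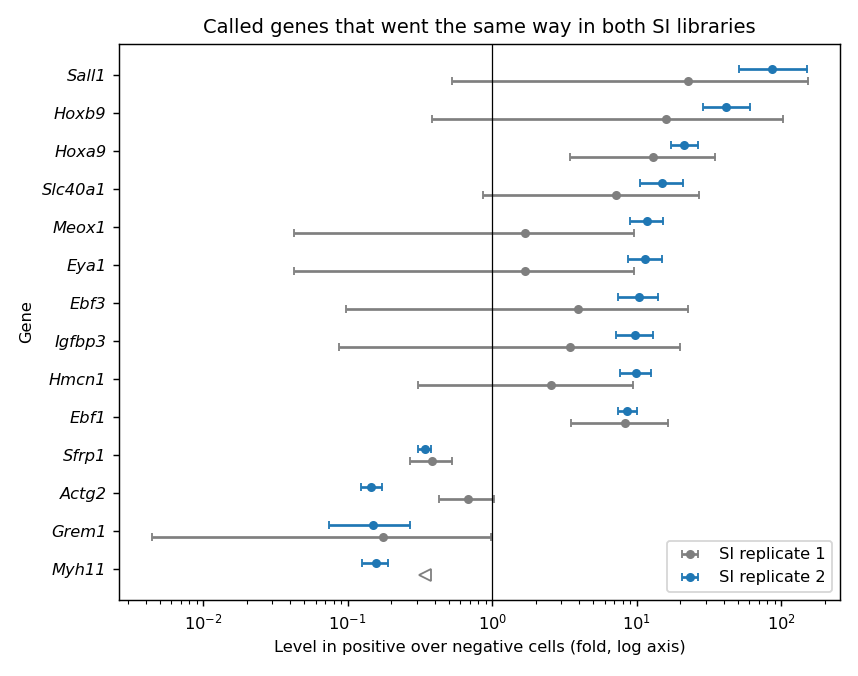
Fold of the level in positive over negative cells (horizontal axis, log scale) for the 14 named genes that were called and went the same way in both SI libraries (rows). Points are folds with 95% counting intervals for SI replicate 1 (grey) and SI replicate 2 (blue), the open arrow is the upper bound for *Myh11*, which had 0 UMIs in replicate 1; for *Hoxa9*, *Ebf1* and *Sfrp1* the intervals of both libraries lie on the same side of 1.

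Some genes were higher in positive cells of both libraries. *Ebf1*, an early B-cell factor family gene of mesenchyme, was 8.26-fold higher (3.53 to 16.5) in positive cells of SI replicate 1 and 8.61-fold (7.36 to 10.0) in SI replicate 2 (log2 fold change 3.02 ± 0.16, adjusted p = 0.018). *Hoxa9* and *Ebf1* were called in 8 and 7 of 13 other settings. *Isl1*, a LIM homeobox factor, was 12.8-fold (6.31 to 23.4) and 4.52-fold (3.43 to 5.88) higher (2.37 ± 0.20, adjusted p = 0.046). In edgeR's test it was the only call among the 17 regional transcription factors tested (0.221% of all genes were called higher). At an unadjusted p under 0.05 were 7 of the 17, 3 of them lower, beside 1521 of all 13564 genes, and DESeq2 called 2. In the forkhead groups of SI replicate 2 *Isl1* ranged from 2.17 CPM, with *Foxd1* or *Foxc* genes alone, to 108 CPM with neither, beside 6.52 CPM in negative cells. *Crabp1*, a cytosolic retinoic acid binding protein, was 3.79-fold (1.88 to 6.82) and 5.03-fold (4.45 to 5.66) higher (2.18 ± 0.17, adjusted p = 0.041). It was the only call of edgeR's test among 13 retinoic acid genes tested (0.221% of all genes were called higher). Of the 13, 10 were at an unadjusted p under 0.05, 2 of these lower, and DESeq2 called 1. *Enho* and *Tril*, with 6 and 5 UMIs in replicate 1, were also higher in both (adjusted p = 0.045 and 0.041). *Sall1*, a zinc finger factor of the kidney, *Slc40a1*, the iron exporter ferroportin, *Eya1*, a transcriptional co-factor of kidney and ear development, *Ebf3*, *Igfbp3* and *Hmcn1* rose by log2 fold changes of 3.04 to 6.12 over both libraries, but on only 1 or 2 UMIs in positive cells of SI replicate 1.

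Of 29 signals and antagonists 27 were tested, and 2 fell in edgeR's test (0.0442% of all genes did). At an unadjusted p under 0.05 there were 17 of the 27, 9 of these lower, and DESeq2 called 2. *Sfrp1*, a secreted Wnt inhibitor, was at 224 against 584 CPM in SI replicate 1 and at 153 against 450 CPM in SI replicate 2 (log2 fold change -1.59 ± 0.12, adjusted p = 0.035). *Grem1*, a secreted BMP inhibitor, was at 6.05 against 34.7 CPM and at 4.77 against 32.0 CPM (-2.79 ± 0.24, adjusted p = 0.028). Both were also on the list of 13 genes that earlier results of these data gave as higher in SI than LI, of which all 13 were tested, 0 rose and 2 fell, with a median log2 fold change of -1.04. Of the 10 genes given as higher in LI, 8 were tested and 5 rose, which were 4 genes of the rule and *Hoxa9*, with a median of 1.20 without the rule genes. Both lists were chosen on these samples and are no independent evidence of a direction. In positive LI cells *Sfrp1* was at 85.8 and 89.9 CPM and *Grem1* at 3.94 and 2.27 CPM.

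Contractile genes of smooth muscle (SMC) were on the lower side. Of the 7 SMC markers, 7 were tested and 2 fell (0.0442% of all genes), with a median log2 fold change of -2.07, while 6 were lower at an unadjusted p under 0.05 and DESeq2 called 6. *Actg2*, enteric smooth muscle actin, was at 133 against 195 CPM in SI replicate 1 and at 65.5 against 448 CPM in SI replicate 2 (-2.40 ± 0.17, adjusted p = 0.032), a counting interval that reached 1 in replicate 1 (0.427 to 1.03-fold). *Myh11*, smooth muscle myosin, had 0 UMIs in positive cells of SI replicate 1, at most 0.344-fold, and was at 40.3 against 259 CPM in SI replicate 2 (adjusted p = 0.041). *Acta2* was at 538 against 1200 CPM and at 456 against 2470 CPM (adjusted p = 0.0999). The summed level of the 7 ranged from 897 to 980 CPM in the positive sums and from 1850 to 4150 CPM in the negative ones. Cells with under 5 UMIs of *Acta2*, *Tagln*, *Actg2*, *Myh11* and *Cnn1* together were 12 of 18 positive and 2077 of 4757 negative cells in SI replicate 1, and 160 of 215 and 1828 of 5804 in SI replicate 2.

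Of 9 fibroblast (FB) markers 8 were tested and 0 passed in edgeR's test, with 5 at an unadjusted p under 0.05 and 1 called by DESeq2, and *Col3a1* stood at 623 against 503 CPM in SI replicate 1 and 630 against 767 CPM in SI replicate 2. Of the 40 S phase and 52 G2M phase genes 0 passed in edgeR's test or in DESeq2, with 3 and 1 at an unadjusted p under 0.05, and their medians were -0.06 and 0.03. In edgeR's test 0 genes were called in the other marker lists of cell types: enteric neural (7 of 9 tested), interstitial cells of Cajal (3 of 3), pericytes (5 of 5), mesothelium (4 of 8), epithelium (2 of 6), endothelium (3 of 5), erythroid (3 of 6) and gastric or splenopancreatic mesenchyme (3 of 5). At an unadjusted p under 0.05 there were 2, 3, 2, 1, 2, 0, 0 and 1 genes in these lists in the same order, and DESeq2 called 1, in the mesothelial list. *Upk1b* and *Msln* of the mesothelium and *Cdh1*, *Cdx2*, *Cldn6* and *Shh* of the epithelium had 0 UMIs in all positive SI cells, with summed mesothelial levels of 42.4 against 16.0 CPM and 89.3 against 11.7 CPM in SI replicates 1 and 2. *Upk3b* of that list was at 0 by the rule, and *Wt1* gave most of the mesothelial level in positive cells of SI replicate 2. Immune markers had 0 UMIs in positive cells of both libraries. The summed enteric neural markers stood at 762 CPM in positive and 178 CPM in negative cells of SI replicate 1, although *Sox10* and *Prph* were at 0 there by the rule, and in SI replicate 2 at 55.9 and 206 CPM. Cells with 3 or more UMIs of these markers were 1 of the 18 and 13 of the 215 positive cells. Without such cells in any library, an alternative added after the data were seen, 8 of the 36 calls were left, while the log2 fold changes of *Ebf1* (3.0), *Isl1* (2.44) and *Sfrp1* (-1.53) were close to those with them, at adjusted p = 0.054, 0.079 and 0.079.

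The adult regional lists had medians near that of all genes. Of the 88 genes higher in both adult colon FB subsets, 69 were tested, 5 rose (0.221% of all genes did) and 1 fell (0.0442%), and the risers were *Isl1*, *Hoxa9* and 3 genes of the rule. The median was 0.13 without the rule genes. Of the 61 genes of adult SI, 41 were tested, 0 rose and 1 fell (*Myh11*), with a median of 0.00. At an unadjusted p under 0.05 were 30 of the 69 colon genes, rule genes included, and 22 of the 41 SI genes. Of these, 9 and 13 were lower, and DESeq2 called 4 and 2 genes of the lists.

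The next comparison set positive SI cells against positive LI cells. Of 12812 genes tested 175 passed (1.37%), 103 higher (0.804%) and 72 lower (0.562%) in SI. With DESeq2 53 genes passed, 22 higher and 31 lower, so that the larger direction depended on the tool. *Pitx1*, a homeobox factor of the hindgut and hind limb, had 0 UMIs in positive cells of SI replicate 1 and stood at 2.60 CPM in SI replicate 2, against 180 and 133 CPM in LI (log2 fold change -5.99 ± 0.48, adjusted p = 2.1e-05). The uncharacterised transcript *2600014E21Rik* had 0 UMIs in both SI sums and was at 58.2 and 58.3 CPM in LI (adjusted p = 1.2e-04). *Crym*, which encodes crystallin mu, a thyroid hormone binding protein, was at 57.2 CPM in SI replicate 2 and had 0 UMIs in SI replicate 1, against 1.19 and 0.485 CPM in LI (adjusted p = 1.0e-04). Both SI sums lay over both LI sums for the next genes. *Aldh1a2* was at 169 and 218 CPM against 23.6 and 31.4 CPM (2.90 ± 0.26, adjusted p = 1.0e-04), and *Alcam*, an adhesion molecule, at 90.8 and 99.7 against 8.34 and 11.9 CPM (3.29 ± 0.28, adjusted p = 8.2e-05). Neither was called between positive and negative SI cells (log2 fold change -0.56 and 0.18, adjusted p = 0.41 and 0.79 in edgeR's test). *Hoxb9* was at 6.05 and 37.7 CPM against 7.44 and 6.58 CPM (2.26 ± 0.36, adjusted p = 0.0048), with only replicate 2 above LI. Without SI replicate 2 the count was 11, and without either LI library it was 0.

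Of the 22 anterior *Hox* genes tested here, 7 were higher in positive SI cells and 0 lower (0.804% of all genes were higher), with a median of 0.89 beside -0.04 over all genes. DESeq2 called 2 of the 22. *Hoxb6* was at 42.4 and 19.1 CPM against 3.32 and 4.67 CPM (2.49 ± 0.40, adjusted p = 0.0043), and *Hoxb2* at 254 and 106 against 22.6 and 53.5 CPM (adjusted p = 0.024). Both SI sums lay above both LI sums for these genes. Of 18 regional transcription factors tested 5 were higher (0.804% of all genes) and 2 lower (0.562%), and DESeq2 called 4.

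The last test asked whether positive and negative cells differed in SI as they do in LI. The difference itself differed between regions for 477 of 13643 genes (3.50%), 283 more positive in SI (2.07%) and 194 less (1.42%). *Foxf1* stood under the negative cells in both SI libraries, while in LI it was at 257 against 174 CPM and 480 against 372 CPM (interaction log2 difference -1.92 ± 0.21, adjusted p = 3.9e-05), and *Nkx2-3* had an interaction of -1.55 ± 0.20 (adjusted p = 1.8e-04). *Ebf3* (5.58 ± 0.40), *Crym* (10.62 ± 0.59) and *Ccnd1*, which encodes cyclin D1 (2.56 ± 0.18), were on the positive side of SI and on the negative side of LI. *Tmem158* and *Col23a1*, a membrane collagen gene, went the other way (-2.35 ± 0.19 and -2.30 ± 0.19). In LI the negative cells were the minority, 1103 of 5679 and 775 of 4272, whereas in SI the positive cells were. Negative LI cells held more transcripts of other cell types: summed enteric neural markers were at 475 and 578 CPM in negative and 43.6 and 54.0 CPM in positive LI cells, and SMC markers at 1120 and 2780 against 662 and 1440 CPM. Without cells rich in neural markers 265 genes were called, and without those rich in SMC transcripts 290.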

How the data were processed

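Mesenchymal cells of 2 SI and 2 LI libraries from E12.5 embryos were measured by 10x single-cell RNA sequencing. The deposited matrices hold UMI counts per gene and barcode, which the authors made with Cell Ranger 3.1.0 on mm10 and analysed in Seurat 3. Their cell annotation was not used here. Which library used the 3' and which the 5' kit is not given in the sources used here. Libraries held 31630548 to 62886525 UMIs over 28692 listed genes.

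Cells were kept with 1000 or more genes, under 10% mitochondrial UMIs and 0 UMIs of *Upk3b*, *Sox10* and *Prph*. Counts of positive and negative cells were summed per library, scaled by TMMwsp, filtered by filterByExpr and tested with edgeR 4.0.16 (R 4.3.3) with library as a block where both sums of a library entered, since cells are not replicates. The current quasi-likelihood method was chosen over the older one after the data were seen, because the older one set the spread of all genes equal where 1 residual degree of freedom was left. Replicates are libraries of 2 experiments, so p-values measure only the spread between these libraries. Folds within a library have exact counting intervals, shares have Wilson intervals (95%), and a sum with 0 UMIs was given a floor of 3 UMIs. The tests were checked on simulated data.

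The members and gene lists were chosen with earlier results of these data known. Genes were named where they were called, went the same way in both SI libraries and had 10 or more UMIs (up to 10 per direction by size of change), where they were called members of a list, or where they had the 5 smallest adjusted p in the SI against LI or the interaction comparison. *Hox* genes and regional transcription factors were named where called (*Hoxa9*, *Hoxb9* and *Isl1*), and *Pitx1* whether called or not. Alternatives covered scaling, filters, depth, doublets, membership and left-out libraries.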

Additional observations from a re-analysis of the deposited data

Results flagged for a closer look

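The difference between positive and negative cells was not the same in SI and LI for 477 genes, by a test of the interaction. Enteric neural markers moved with it: they were at 475 and 578 CPM in negative and 43.6 and 54.0 CPM in positive LI cells, and 265 genes were called without cells rich in them. The log2 difference was 10.62 for *Crym*, 2.56 for *Ccnd1*, 5.58 for *Ebf3*, 5.66 for *Foxc1* and 5.06 for *Hoxb9*, toward positive SI cells. It was -2.35 for *Tmem158*, -2.30 for *Col23a1*, -1.92 for *Foxf1* and -1.55 for *Nkx2-3*. *Crym* and *Foxc1* had 0 UMIs in positive cells of SI replicate 1, so that their values rest on SI replicate 2.

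Among cells left out for a UMI of *Upk3b*, 12 of 213 in SI replicate 2 (5.63%, 95% Wilson interval 3.25 to 9.59%) carried a posterior *Hox* UMI, against 2 of 363 cells with *Sox10* or *Prph*. In SI replicate 1 it was 1 of 345.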

How the results depend on the processing

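Of the calls between positive and negative SI cells, 36 became 60 with TMM scaling, 61 with DESeq2 (19 shared), 70 with no filter, 6 with 5 or more UMIs expected, 193 with no replicate block, 60 without high Scrublet scores, 8 without cells rich in enteric neural markers and 446 with the older quasi-likelihood method, the last 2 added after the data were seen. They became 0 after thinning, in cells at or above the median UMIs, with 2 or more UMIs, without *Hoxd9* and without cells rich in SMC transcripts, with 663, 1158, 915, 1312 and 941 genes at an unadjusted p under 0.05; DESeq2 was not run in those settings, and the cause was not tested. Leaving out either SI library left no residual spread and so no test.

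The 175 calls of SI against LI became 53 with DESeq2, 304 with no filter, 116 in deeper cells, 374 with 2 or more UMIs and 338 with the older method. With a replicate block they became 0 (1032 at an unadjusted p under 0.05), but replicate numbers are not tied to an experiment in the labels, and the correlation of same-numbered deviations was 0.104 over 12793 genes. Leaving out a library gave 0 to 155. The 477 interaction calls became 143 with DESeq2, 316 in deeper cells, 841 with 2 or more UMIs, 290 without cells rich in SMC transcripts, 265 without cells rich in neural markers and 727 with the older method. The mean share of positive SI cells, 1.97%, was 1.02 to 2.22% under other filters and 0.377 to 3.57% with 1 library left out. Among called genes with a value in the setting, the direction reversed for 2: *Kctd12* was -0.16 without SI replicate 2 and 2.82 without SI replicate 1, and *Cck* was 1.02 without cells rich in neural markers. Without SI replicate 2, 13 of the 44 named or called genes had no value. Of genes not called, *Alcam* (0.18) was -0.47 after thinning and -0.42 without cells rich in SMC transcripts, *Aldh1a2* (-0.56) was 0.099 without the latter, and *Hand1* (-0.56) was 0.19 without SI replicate 2. Depth limits SI replicate 1, where 3 UMIs stand for 18.2 CPM in positive cells.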
